A study of Mus musculus with 4 samples.

Results

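RUVBL2 binding in the mouse hypothalamus was examined at genes grouped as immediate early genes, many of which neurons switch on within minutes of activity. They were 10 of 21779 protein-coding genes, namely Fos, Fosl2, Jun, Junb, Jund, Egr1, Nr4a1, Nr4a3, Dusp1 and Arc. Fosl2 is induced more slowly, and the product of Jund is present in cells without stimulation. The 10 genes were chosen by name with the peak positions of these same libraries already known, so how many of them held a peak is a description and was not tested. Of these, 6 held a RUVBL2 peak in at least 1 library, and 5 of the 6 (Fosl2, Jun, Jund, Nr4a3 and Dusp1) held overlapping peaks in both libraries. Nr4a1 held a peak in replicate 1 only. Fos, Junb, Egr1 and Arc held none. Among all protein-coding genes, 17.2% held overlapping peaks and 64.3% held none in either library.

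RUVBL2 is an AAA+ ATPase that works with its relative RUVBL1 in the INO80, SRCAP and TIP60 chromatin complexes and in protein assembly. Chromatin came from whole hypothalamus of wild-type male C57BL/J mice aged 8 weeks, with no treatment named. Of 4 libraries, 2 were chromatin immunoprecipitation with an antibody against RUVBL2 and 2 were input DNA of the same tissue; the input libraries served no comparison here. The labels do not say whether the replicates came from separate animals or pools, so differences between them measure only the spread between 2 libraries, which may be technical. Every peak name in the list of replicate 2 begins with Hyp3, while the title of that sample begins with Hyp2, so which library the list came from rests on its deposit under that sample. All replicate 2 values and overlaps depend on it. The tissue mixes many neurons and glia, and no stimulus that would induce these genes is named, so a peak carried by a small share of cells need not appear in the lists. Of 9 marker genes of neurons, astrocytes, oligodendrocytes and microglia, 1 held overlapping peaks (11.1%, beside 17.2% of all protein-coding genes). It was Rbfox3, a neuronal splicing factor, with summits 80378 and 80194 bp from its nearer end and so inside the gene. Presence of a peak does not identify a cell type.

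Immediate early genes are read out from promoters that are already open, through factors that wait at them. Calcium and cAMP signals reach CREB at the cAMP response element and SRF with its ternary complex partners at the serum response element, through several kinase cascades, among them PKA and the CaM kinases. Their products follow in a second step. FOS and JUN proteins pair as the AP-1 factor, EGR1 and the NR4A orphan nuclear receptors bind DNA on their own, DUSP1 removes phosphate from MAP kinases and so limits the signal, and ARC acts at synapses. The members are therefore mostly transcription factor genes, with DUSP1 and ARC as the exceptions.

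A gene was counted as holding a peak where the summit, the position of highest signal in the peak, lay inside the gene or within 3 kb of either of its ends. By this rule replicate 1 had a peak at 6 of the 10, beside 20.9% of all protein-coding genes. Replicate 2 had one at 5 of the 10, beside 32.6%. Overlapping peaks of both libraries were held by 5 of the 10 (50%, exact Clopper-Pearson 95% interval 18.7 to 81.3), against 17.2% of all protein-coding genes. Since the 10 were chosen with these peaks known, the interval is not a test against that share. The state of Nr4a1, a peak in replicate 1 and none in replicate 2, was shared by 3.15% of protein-coding genes. Neither list held a peak at 4 of the 10, against 64.3% of all genes. These 6 genes carried 6 peaks of the 3943 in replicate 1 and 7 of the 6403 in replicate 2. Each of the 13 summits lay nearer to its member than to any other protein-coding gene.

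**Figure D1:**
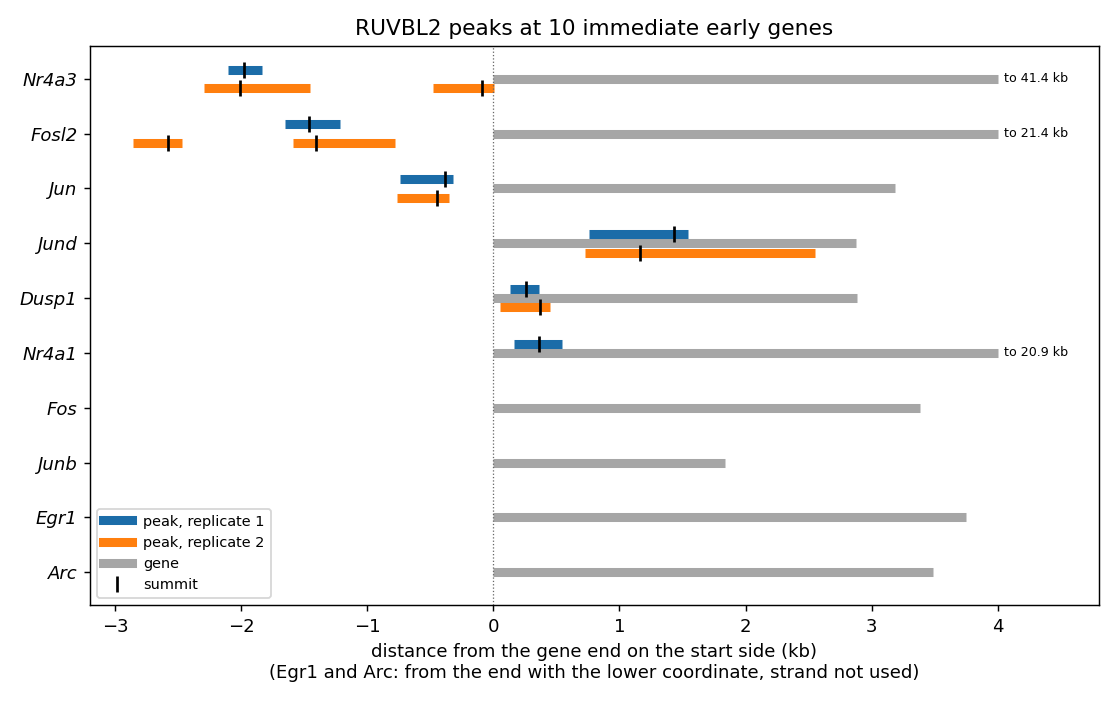
Position of every RUVBL2 peak at the 10 genes, in kb from the gene end on the side of the start (gray, gene, cut at 4 kb; blue, replicate 1; orange, replicate 2; black ticks, summits). Peaks of Nr4a3, Fosl2 and Jun lie upstream of the gene, those of Jund, Dusp1 and Nr4a1 inside it, and Fos, Junb, Egr1 and Arc have none.

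The stretches just upstream of the start sites show which exact element letters lie close to each start, whether or not a peak was listed nearby. Elements farther away, or with other letters, were not searched for. They are from RefSeq on GRCm38.p6, which held windows for 8 of the 10 genes; Egr1 and Arc were not matched. Each line gives the 250 bases before the start, 5′ to 3′ on the strand of the gene. Capitals mark the short cAMP response element (TGACG or, on the other strand, CGTCA) and the TATA box TATAAA. The first 3 genes held overlapping peaks and are shown because a peak touches or lies within 103 bp of their start windows. At Nr4a3 that peak was listed in replicate 2 only, while its overlapping peaks lay 1815 and 1433 bp from the window. No capitals appear in the Jun line, since none of these exact letters was found there. The last 3 are shown as relatives with no peak at the window.

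Dusp1, chr17:26508473-26508722, minus strand: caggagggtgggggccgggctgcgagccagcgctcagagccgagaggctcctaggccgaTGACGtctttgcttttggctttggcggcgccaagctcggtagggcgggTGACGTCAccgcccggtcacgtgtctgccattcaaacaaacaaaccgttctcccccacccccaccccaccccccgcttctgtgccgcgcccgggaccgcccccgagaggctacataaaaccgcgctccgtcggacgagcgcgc
Nr4a3, chr4:48045055-48045304, plus strand: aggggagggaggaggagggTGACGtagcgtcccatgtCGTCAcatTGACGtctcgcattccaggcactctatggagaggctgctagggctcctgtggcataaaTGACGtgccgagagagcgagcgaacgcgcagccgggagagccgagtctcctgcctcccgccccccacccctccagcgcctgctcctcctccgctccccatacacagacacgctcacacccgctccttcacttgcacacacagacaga
Jun, chr4:95052223-95052472, minus strand: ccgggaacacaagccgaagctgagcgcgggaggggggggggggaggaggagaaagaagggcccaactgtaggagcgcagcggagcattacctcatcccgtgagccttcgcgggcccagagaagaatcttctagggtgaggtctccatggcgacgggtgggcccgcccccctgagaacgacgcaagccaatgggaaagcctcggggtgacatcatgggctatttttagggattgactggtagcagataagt
Fos, chr12:85473640-85473889, plus strand: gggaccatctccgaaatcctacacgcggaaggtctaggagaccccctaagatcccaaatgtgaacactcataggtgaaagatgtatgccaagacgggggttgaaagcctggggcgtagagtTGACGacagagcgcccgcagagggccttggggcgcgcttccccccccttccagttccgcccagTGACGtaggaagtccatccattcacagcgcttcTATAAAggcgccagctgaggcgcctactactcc
Junb, chr8:84978749-84978998, minus strand: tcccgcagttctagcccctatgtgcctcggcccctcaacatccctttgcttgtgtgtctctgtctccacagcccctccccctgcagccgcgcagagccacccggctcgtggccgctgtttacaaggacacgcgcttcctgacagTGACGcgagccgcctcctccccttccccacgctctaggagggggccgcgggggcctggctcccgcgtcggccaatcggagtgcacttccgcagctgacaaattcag
Nr4a1, chr15:101266596-101266845, plus strand: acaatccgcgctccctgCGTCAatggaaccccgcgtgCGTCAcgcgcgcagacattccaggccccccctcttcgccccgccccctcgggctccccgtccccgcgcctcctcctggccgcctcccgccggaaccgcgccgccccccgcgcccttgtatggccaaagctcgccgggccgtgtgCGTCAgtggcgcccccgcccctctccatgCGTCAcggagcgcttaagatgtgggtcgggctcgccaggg

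The short cAMP response element was present on both sides of the division by peaks. In windows from 250 bases before to 50 bases after the start, searched on both strands, TGACG was found in 5 of the 8 genes: Nr4a3 (4 matches) and Dusp1 (3) with overlapping peaks, Nr4a1 (4) with a peak in replicate 1, and Fos (2) and Junb (1) with none. No match was found at Fosl2, Jun or Jund, which also held overlapping peaks. TGACG was found in 23.6% of 21263 such windows at 17492 protein-coding genes, with 35.7% at genes with overlapping peaks and 17.4% at genes with no peak in either list. The full element TGACGTCA, which holds 2 overlapping short matches, was found at Dusp1 only, 143 bases before its start, and in 2.23% of all windows. The CArG box of the serum response element was in none of the 8 windows and in 1.52% of all. None of the 8 held the AP-1 site TGANTCA (6.99% of all windows). The E-box CACGTG was found at Dusp1 (7.84% of all windows), the NF-Y box CCAAT at Jun and Junb (38.2%), and TATAAA at Fos and Junb (12.6%), the Junb match beginning at the start base itself. The SP1 box GGGCGG was in 6 of the 8 windows, all but those of Junb and Jund, and in 46.2% of all. A match describes letters only, and a missing match says that these letters are not in this window.

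Nr4a3, which encodes the nuclear receptor NOR1, had the pair of summits that lay closest together. Its shared region lay about 2 kb upstream of the gene (chr4:48042782-48043621, GRCm38), with the gene itself at 48045078 to 48086447. The fold enrichment at the summit over the background, as the authors' peak caller gave it, was 6.09 (exact Poisson 95% counting interval 3.79 to 9.34) for replicate 1, and for replicate 2 it was 7.96 (5.38 to 11.4). The summits lay 1982 and 2009 bp before the gene end and were 27 bp apart. This fold adds 1 to the reads and 1 to the background before dividing. The peaks rested on 19 and 28 reads over backgrounds of 2.28 and 2.65 reads, near the lowest background of each list. By −log10 p they ranked 889 and 692. The peak of replicate 1 was narrow, 264 bp, and lay wholly within the 840 bp peak of replicate 2.

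Replicate 2 listed a second peak at Nr4a3, directly at the gene end (48044600 to 48045081). Its summit lay 90 bp before the gene end and 317 bp before the RefSeq start used above. That start lies inside the annotated gene, and so does most of the stretch printed above. The last 27 bases of the peak reached into this stretch. They hold the first of its 4 short cAMP element matches, 231 bases before that start, which ends on the first base of the gene (48045078). This was the only motif match of any member window inside a peak. The fold was 3.98 (2.41 to 6.24), on 17 reads, at rank 4973. Replicate 1 had no peak there. Of the 2 places, the upstream one was listed in both libraries and had the higher fold in replicate 2.

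Fosl2 encodes the FOS relative FRA-2, a more slowly induced AP-1 subunit. Its shared region also lay upstream (chr5:32134817-32135695), with the gene at 32136472 to 32157840 and the nearest other protein-coding gene, Babam2, at least 48939 bp from any of these summits. The fold was 5.24 (counting interval 3.13 to 8.32) for replicate 1, and for replicate 2 it was 4.26 (2.74 to 6.35), at ranks 1546 and 3664. The summits lay 1462 and 1404 bp before the gene, 58 bp apart. A second peak, listed in replicate 2 only, lay farther out, with its summit 2583 bp before the gene and a fold of 3.98 (2.41 to 6.24). It was the member peak closest to the 3 kb limit from inside. The next beyond the limit was a replicate 2 peak 7169 bp from Junb.

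Jun encodes c-Jun, the main partner of FOS. Its peaks (chr4:95052539-95052985 joined) lay just upstream of the start, since the gene (95049036 to 95052222) is on the minus strand. The fold was 4.01 (counting interval 2.22 to 6.77) for replicate 1, and for replicate 2 it was 5.37 (3.63 to 7.68). Jun ranked low in replicate 1, at 3306, and higher in replicate 2, at 1662. The peaks had like widths, 424 and 410 bp, and the summits were 70 bp apart, 381 and 451 bp before the start. They began 66 and 103 bp beyond the upstream limit of the Jun window printed above. Both summits lay inside Junos, a lncRNA gene beside Jun, 286 and 356 bp from its end, so the region cannot be given to 1 of these genes by position.

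Jund encodes JunD, the JUN member that is present in cells without stimulation. The peaks lay inside this gene of 2878 bp (chr8:70697739-70700616), at 1432 bp from the annotated start in replicate 1 and at 1166 bp in replicate 2. Of the 5 pairs, this one had the ranks that lay farthest apart. In replicate 1, Jund was the best-ranked member, at 367 of 3943, with a fold of 6.82 (4.47 to 10.02). In replicate 2 it was the worst, at 5888 of 6403, with a fold of 2.83 (1.84 to 4.19). The summit pileups were alike, 24 and 23 reads, while the background was 2.66 reads in replicate 1 and 7.48 in replicate 2, which is 2.83 times the lowest of that list. The replicate 2 peak spanned 1824 bp, wider than 99.6% of its list, and the summits lay 266 bp apart. Iqcn, the next protein-coding gene, lay 705 bp from Jund and 2150 and 2416 bp from the summits.

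Dusp1 encodes MKP-1, a nuclear MAP kinase phosphatase. Its peaks (chr17:26508022-26508422 joined) lay inside the gene (26505591 to 26508472, minus strand), 258 and 367 bp after the start. The fold was 4.26 (counting interval 2.41 to 7.07) for replicate 1, and for replicate 2 it was 3.98 (2.41 to 6.24), on 13 and 17 reads. The ranks, 3130 and 4973, were in the lower part of both lists: 79.4% and 77.7% of the peaks had a higher −log10 p. The replicate 1 peak was 236 bp wide, and no peak of that list was narrower. The summits were 109 bp apart. The joined peaks ended where the 300-base window around the Dusp1 start began, so the cAMP element matches lay outside them.

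Nr4a1, which encodes the nuclear receptor NUR77, held a peak in replicate 1 only (chr15:101254067-101254443). It had a fold of 4.51 (2.77 to 6.98) on 18 reads and rank 1894. Its summit lay 363 bp inside the lower end of the gene (101253902 to 101274795). Since the gene is on the plus strand, this is the end where the annotated gene begins. Whether transcription starts there was not tested. The RefSeq start whose upstream bases are printed above lies farther along the gene, 12581 bp from that summit, so the peak was not at that promoter. In replicate 2 the nearest peak lay 7660 bp before the gene, with a fold of 3.43 (2.05 to 5.44).

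**Figure D2:**
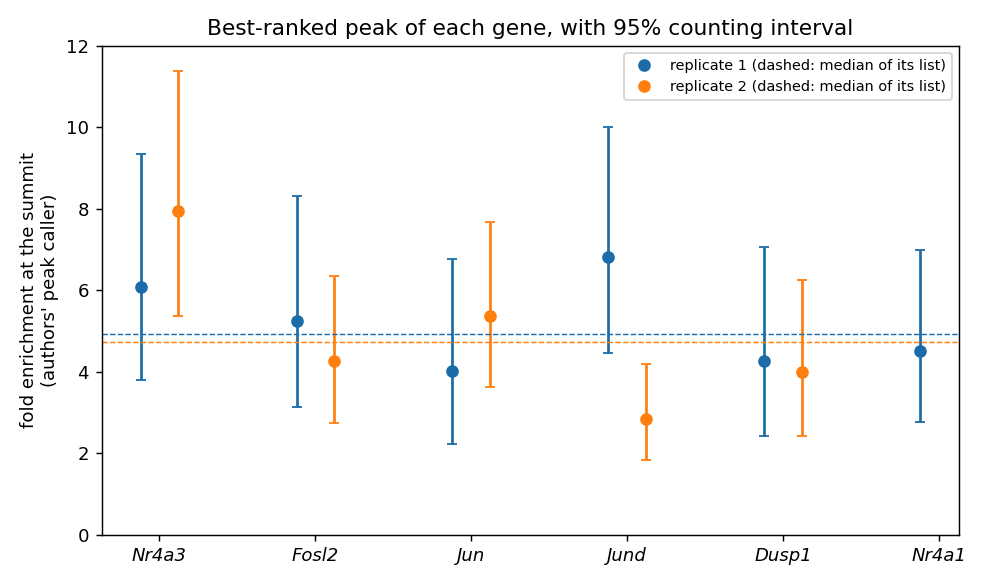
Fold enrichment at the best-ranked peak of each gene that held one, with exact Poisson 95% intervals of the summit pileup (blue, replicate 1; orange, replicate 2; dashed lines, the median fold of each list, 4.93 and 4.74). All 6 intervals of replicate 1 overlap one another, while in replicate 2 those of Nr4a3 (5.38 to 11.4) and Jund (1.84 to 4.19) do not.

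Fos, Junb, Egr1 and Arc had no listed peak near them in either library. At Fos (chr12:85473890-85477274) the nearest summits lay 99565 bp away in replicate 1 and 99165 bp in replicate 2, at Tmed10, the neighbouring protein-coding gene. At Arc (chr15:74669081-74672570) they lay 48723 and 48816 bp away, at Them6. At Egr1 (chromosome 18, 34861207 to 34864956) the nearest lay 83940 bp away at Kdm3b in replicate 1 and 20495 bp away at Reep2 in replicate 2. Junb (chr8:84976909-84978748) had its nearest at 48183 bp, at Trir, in replicate 1, and at 7169 bp, at Prdx2, in replicate 2. Every one of these nearest summits lay closer to the neighbour named than to the member. The lists hold only peaks that passed the authors' peak caller, and where the background was lowest the listed peaks had at least 10 reads at the summit in replicate 1 and 11 in replicate 2. A weaker signal at these 4 genes was not detectable in these files.

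The members with a peak did not form an order by fold that both libraries share. In replicate 1 the order from the highest fold was Jund, Nr4a3, Fosl2, Nr4a1, Dusp1 and Jun, and every interval overlapped that of every other. In replicate 2 it was Nr4a3, Jun, Fosl2, Dusp1 and Jund, and each interval overlapped that of its neighbour in the order. The first and last of replicate 2, Nr4a3 and Jund, had intervals that did not overlap. Low read numbers make such values coarse. The replicate 2 peak of Dusp1 and the second peaks of Fosl2 and Nr4a3 each had 17 reads over 3.52 reads, and so the same fold and the same rank, which 36 peaks of that list share.

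**Figure D3:**
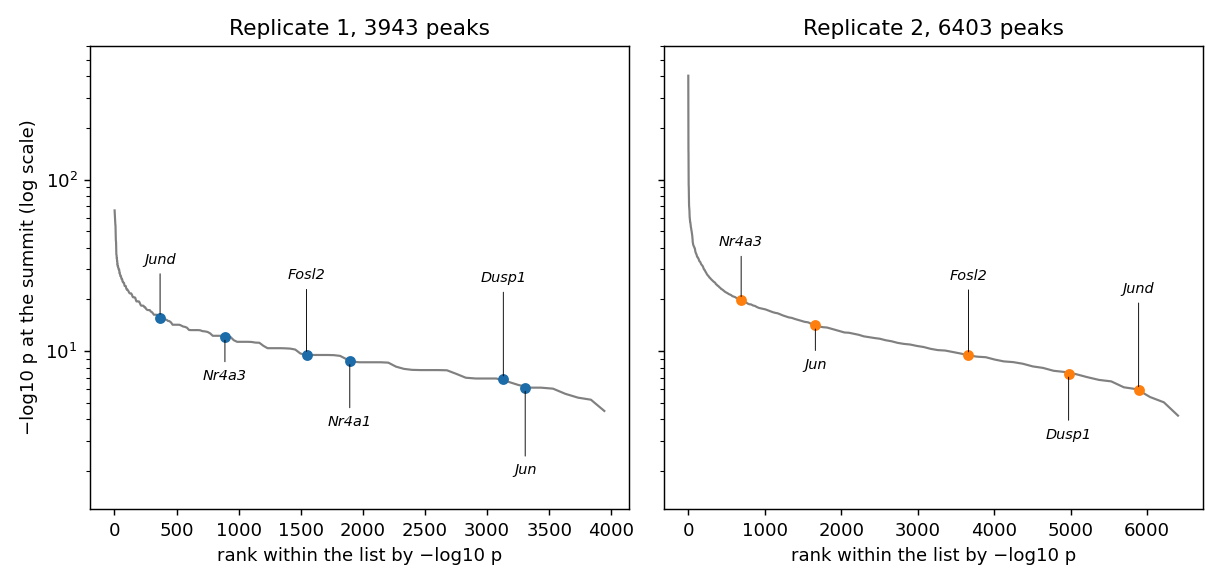
The −log10 p of all peaks against their rank in replicate 1 (3943 peaks) and replicate 2 (6403 peaks), on a log scale, with the best-ranked peak of each member marked. The members are spread over both curves, from rank 367 (Jund) to 3306 (Jun) in replicate 1 and from 692 (Nr4a3) to 5888 (Jund) in replicate 2.

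Within the lists the shared members were neither the strongest nor the weakest peaks. A median of 39.2% of replicate 1 peaks and 57.2% of replicate 2 peaks ranked above the peaks of the 5 genes. Over all 3175 overlapping pairs of peaks these medians were 39.2% and 31.7%. The median fold of the 5 genes was 5.24 in replicate 1 and 4.26 in replicate 2, beside 5.04 and 5.36 for all pairs. Summits of the 5 pairs lay a median of 70 bp apart (range 27 to 266), beside 94 bp for all pairs (middle 50% from 41 to 200). In replicate 2 the peaks were wider than in replicate 1 at 4 of the 5 genes, by 1.70 times at Dusp1 to 3.18 times at Nr4a3, and at Jun the ratio was 0.967. The medians of all pairs were 444 bp in replicate 1 and 637 bp in replicate 2.

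Most overlapping RUVBL2 peaks near genes sat at start sites, and the overlapping peaks of 3 members did not. Of 2512 overlapping pairs within 3 kb of an annotated start of a protein-coding gene, 91.7% had their replicate 1 summit within 500 bp of the start, at a median of 106 bp downstream. In 42 of these pairs (1.67%) both summits lay more than 1000 bp away. Of the 5 member pairs, those of Nr4a3, Fosl2 and Jund did so. The members were gathered by a wider rule, a summit in the gene or near either end, and that share depends on the pairs counted. Measured from the nearer end of any protein-coding gene, both summits lay more than 1000 bp away in 7.87% of the 2833 pairs within 3 kb of an end and in 17.8% of all 3175 pairs, and again in the same 3 member pairs. From the start site in the promoter table the paired Nr4a3 summits lay 2209 and 2236 bp upstream. Those of Fosl2 lay 1462 and 1404 bp upstream, and those of Jund 1432 and 1166 bp downstream. The second Nr4a3 peak, listed in replicate 2 only, had its summit nearer, 317 bp upstream of that start. Jun and Dusp1 lay within 500 bp. With so few members, chosen with these peaks known, the contrast is a description. The table does not hold every start a gene uses, so a start nearer to these summits may exist.

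**Figure D4:**
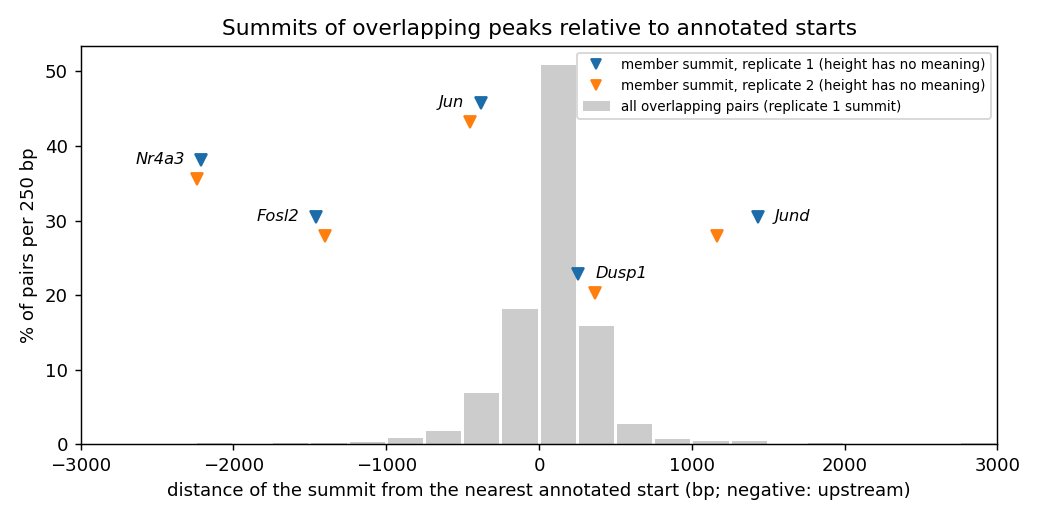
Distance of the replicate 1 summit from the nearest annotated start for all 2512 overlapping pairs (gray bars, % per 250 bp) and of the member summits (triangles, whose height has no meaning; blue, replicate 1; orange, replicate 2). Most pairs sit within 500 bp of a start, while the paired summits of Nr4a3, Fosl2 and Jund lie more than 1000 bp from it. Peaks listed in 1 library only, such as the second Nr4a3 peak, are not drawn.

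The members with and without a peak overlapped in length. The 5 genes with overlapping peaks were 2878 bp (Jund), 2882 bp (Dusp1), 3187 bp (Jun), 21369 bp (Fosl2) and 41370 bp (Nr4a3) long. The 4 with none were short, from 1840 bp (Junb) to 3750 bp (Egr1), with Fos at 3385 bp and Arc at 3490 bp, a range that holds 3 of the genes with peaks. Nr4a1, at 20894 bp, was the third long gene. Among all protein-coding genes, those with overlapping peaks had a median length of 25238.5 bp and those with no peak in either list 13226 bp. A longer gene gives by construction a wider stretch for a summit to fall in. The next protein-coding gene lay between 705 bp (Jund) and 69881 bp (Jun) from the 5 genes with peaks and between 2098 bp (Junb) and 99173 bp (Fos) from the 4 without.

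Across the genome, RUVBL2 peaks went with CpG-rich starts. CpG observed over expected, a measure of CpG islands, had a median of 0.840 (middle 50% from 0.666 to 0.962) in the start windows of genes with overlapping peaks and of 0.338 (0.154 to 0.667) in those of genes with no peak. GC content had medians of 62.7% and 52.3%. The members with and without a peak overlapped in this ratio too. CpG ratios were 1.03 at Fosl2, 0.921 at Dusp1, 0.866 at Nr4a3, 0.594 at Jun and 0.184 at Jund, the genes with peaks. They were 0.775 at Fos and 0.666 at Junb, which had no peak, and 0.913 at Nr4a1. The low ratio of Jund belongs to the window at its annotated start, from which its peaks lay 680 to 708 bp away.

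Of 50 genes listed as further activity-induced genes, AP-1 partner and EGR cofactor genes included, 4 held overlapping peaks (8%, exact interval 2.22 to 19.2). The share of all protein-coding genes was 17.2%. Counted by library, 7 of the 50 (14%) held one in replicate 1, beside 20.9% of all, and 16 (32%) in replicate 2, beside 32.6%. The 4 were Fosl1 and Jdp2, which encode AP-1 family proteins, Klf10, a zinc finger repressor, and Crem, whose short product ICER represses cAMP-induced genes. Crem had folds of 3.56 (2.05 to 5.81) and 7.62 (5.12 to 10.97), and Jdp2 of 4.01 and 6.08. Klf10 had 4.48 and 4.79. The Fosl1 region, with folds of 4.62 and 4.11, lay nearer to Ccdc85b. Among the genes with a peak in replicate 2 only were Fosb, Ier2, Gadd45b, Homer1, Plk2 and Dusp6. Neither Npas4, Egr2, Egr3, Egr4, Nr4a2, Bdnf nor Per1 held one in either list. With the 10 members added, 9 of 60 genes (15.0%, 7.10 to 26.6) held overlapping peaks, beside 17.2% of all protein-coding genes. The 50 were listed from knowledge of the pathway and the 10 by name, both with earlier results of these data known. Their shares are not comparable as samples of 1 class.

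**Figure D5:**
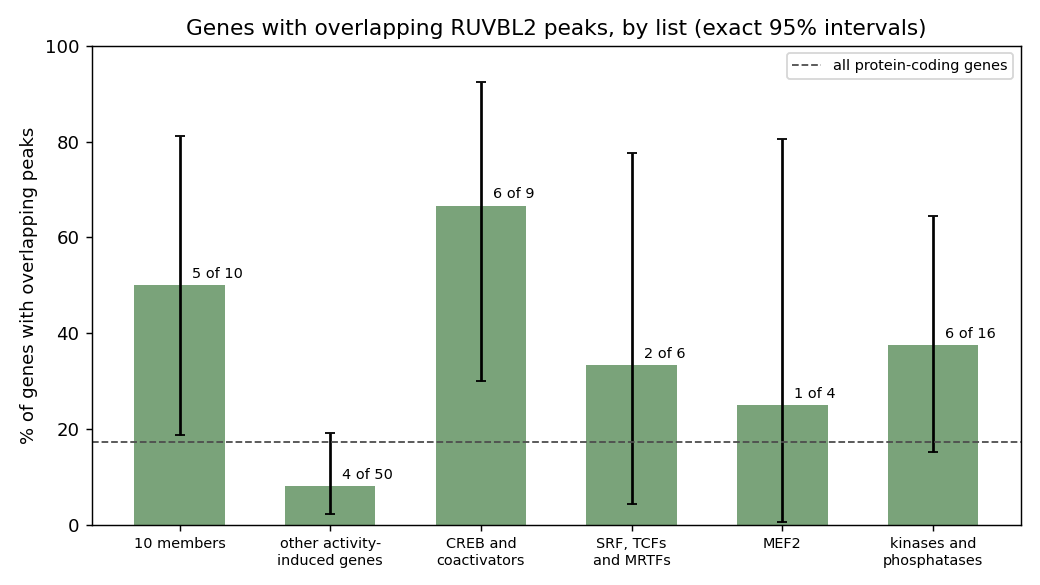
Share of genes with overlapping peaks in the 10 members, the 50 other activity-induced genes and 4 groups of upstream regulators, with exact 95% intervals (dashed line, 17.2% of all protein-coding genes). The bars run from 8% of other activity-induced genes to 66.7% of CREB and its coactivators, and with 4 to 16 genes the intervals of the regulator groups are wide. All lists were chosen with earlier results of these data known.

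Genes of the factors and kinases that act on immediate early genes held overlapping peaks in 15 of 35 cases (42.9%, exact interval 26.3 to 60.6), beside 17.2% of all protein-coding genes. This list too was chosen with earlier results of these data known, so its share is a description and was not tested. Replicate 1 listed a peak at 17 of the 35 (48.6%, beside 20.9% of all) and replicate 2 at 22 (62.9%, beside 32.6%). Neither library listed one at 11 of the 35 (31.4%, beside 64.3%). CREB and its relatives and coactivators made up 6 of the 15, out of 9 such genes. Ep300, an acetyltransferase coactivator of CREB, had a fold of 10.1 (7.10 to 13.9) for replicate 1, and for replicate 2 it was 11.02 (8.26 to 14.4), at ranks 46 and 83. Atf4, a stress-induced relative of CREB, had folds of 11.7 (8.34 to 16.03) and 10.7 (7.92 to 14.2), at ranks 23 and 109. Atf1 had 7.28 and 8.50, Creb1 5.23 and 7.96, Crebbp 6.47 and 4.62, and Crtc2 3.85 and 4.20. These ranks of Ep300 and Atf4 were better than those of any of the 10 members in either list.

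Among the other regulators, 2 of 6 genes of SRF, its ternary complex factors and the MRTFs held overlapping peaks, namely Elk4 (folds 9.56 and 7.30) and Mrtfb (4.93 and 6.03). Srf itself held a peak in replicate 2 only. Of the 4 MEF2 genes, Mef2a held one, 3516 and 3449 bp from its nearer end and so inside the gene (7.40 and 4.32). Kinase and phosphatase genes did so in 6 of 16 cases, among them Prkacb, a catalytic subunit of PKA (4.31 and 6.30), Map2k2 (4.46 and 4.87), Ppp3cb, a calcineurin subunit (5.35 and 4.87), and Rps6ka5, the histone kinase MSK1 (4.93 and 4.03). At 14 of the 15 regulator genes both summits lay within 1000 bp of a gene end, as they did at 2 of the 5 members with peaks. The median share of peaks ranked above those of the 15 was 24.6% in replicate 1 and 13.4% in replicate 2. Whether the regulator genes differ from other expressed genes was not tested, since no expression values were used here.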

How the data were processed

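RUVBL2 ChIP-seq peaks of 2 libraries were used, 1 list each; the input libraries were not analysed here. Tools listed in the submitters' processing notes are MACS2 2.1.0, Bowtie2 2.3.4.1, Trimmomatic 0.33, bcl2fastq 2.17 and ChIPseeker, with build GRCm38; how MACS2 was set, and with which control, is not stated there. Per peak, the authors deposited a fold enrichment ratio, −log10 p and −log10 q at the summit, and a score, which is −log10 q times 10 without its decimals. Read totals are not given, so pileup and background were solved from fold and −log10 p: a whole-number pileup matched 100% and 99.98% of peaks within a relative tolerance of 0.0001, and 100% of 2000 made-up peaks came back exactly. In this solution the fold is the pileup plus 1 over the background plus 1, and the intervals use the same form. Intervals cover counting error only, since amplified reads are not independent molecules. Python 3.11.15 with scipy 1.17.1 was used.

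Peaks overlapping by at least 1 bp were called shared. Genes came from RefSeq GRCm38.p6 (49603 rows on assembled chromosomes, 340 rows within 3 Mb of a chromosome's beginning, Y excepted, were left out), without strand or exons; strand and start sites came from the RefSeq promoter table, so exons and introns were not assigned. Members and lists were chosen with earlier results of these data known. All 10 members were named, and in wider lists genes with peaks in both libraries, best rank first; the other names were chosen after their values were seen. Not every gene under that rule is reported here. With 1 list per library and members so chosen, no test was run. Alternatives varied window, peak point, threshold, overlap, gene assignment, list length and library.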

Additional observations from a re-analysis of the deposited data

How the results depend on the processing

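The 5 members with overlapping peaks were the same with any base or the midpoint of the peak, a 10 kb window, gene ends only, 50% overlap, or nearest gene only. A 1 kb window left 3 (Jun, Jund, Dusp1), a −log10 q of at least 5 left 2 (Fosl2, Nr4a3), the top 1000 peaks left 1 (Nr4a3), and summits within 250 bp left 4 (not Jund). Of 2 alternatives chosen after seeing the data, replicate 2 shortened to the length of replicate 1 left 3 (Fosl2, Jun, Nr4a3), and leaving out peaks with over 2 times the lowest background left 4 (not Jund). Either library alone gave 5 or 6. Other activity-induced genes numbered 8 with 10 kb, 0 with −log10 q of at least 5 and with the top 1000, and 7 or 16 in a library alone; regulators numbered 6 with the top 1000. The share of all protein-coding genes was 16.2% with 1 kb, 20.4% with 10 kb, 15.98% with ends only, 8.50% with −log10 q of at least 5, 3.08% with the top 1000, 16.6% with 50% overlap, 14.3% with summits within 250 bp, 13.2% with nearest gene only, 13.6% with replicate 2 shortened, 15.1% without high background, and 20.9% or 32.6% in 1 library. The median distance between member summits ranged from 42.5 to 94 bp. Ranked by fold, Nr4a3 in replicate 2 moved from 692 to 426, and the other 10 ranks stayed within 1.5 times. No paired analysis was possible because no groups were compared.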
